A study of Mus musculus with 12 samples.

Results

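The choroid plexus epithelial genes examined here were 8 genes, Ttr, Otx2, Folr1, Aqp1, Clic6, Kl, Cldn2 and Prlr, chosen by symbol from the 33024 rows of a gene count table. All 8 were found. The table came from brain cortex of 12 wildtype C57BL/6 mice. The 7 control mice, labelled Vehicle, had drunk water only. The 5 ethanol-administered (EtOH) mice could choose between water and 20% (v/v) ethanol at night over 35 days from an age of 30 days. Ethanol was then withheld for 14 days, and cortex was collected after behavioural testing. The sex of the mice and the borders of the dissected cortex were not given in the sources used here.

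The choroid plexus is a fringe of vascular tissue that hangs into the brain ventricles, covered by a single layer of cuboidal epithelium that secretes cerebrospinal fluid and closes the barrier between blood and that fluid. It is not a part of the cortex, although the plexus of the lateral ventricle lies beside the hippocampus. Its epithelium is the main site of transthyretin synthesis in the brain. In bulk tissue, a change in the number of such cells and a change in RNA per cell cannot be told apart.

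Total counts lay between 31768079 and 42183031 per mouse, with 1 deeper library in each group, Control mouse 5 and EtOH mouse 1. At these depths 3 counts, taken as the floor of detection, corresponded to between 0.0695 and 0.0962 CPM (counts scaled to 1e6 per library, after TMM normalisation of library size). Markers of cortical neurons were abundant in both groups, and the summed level of 8 such genes was 2787 to 3394 CPM in the control and 2823 to 3369 CPM in the EtOH mice. The libraries did differ in markers of other regions. The summed level of 12 striatal markers was 1009 to 2418 CPM in the control and 236 to 305 CPM in the EtOH mice, and that of 10 hippocampal markers was 232 to 287 CPM and 341 to 474 CPM. Wipf3, which was not called, made up more of this sum than the other 9 in every mouse, with 197 to 257 CPM in the control and 198 to 281 CPM in the EtOH mice, and without it the sums were 30.4 to 37.5 CPM and 143.5 to 194 CPM. The part of these differences in the results was not tested.

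The choroid plexus genes were low in the control mice, Folr1 and Cldn2 near the floor of detection, and the EtOH mice spread widely, with Ttr, Folr1 and Cldn2 above every control mouse in 3 of 5. EtOH mouse 3 had the highest level of the 12 mice for 8 of 8 genes, where this mouse was the highest for 10.6% of the 16059 genes tested. For all 8 genes the EtOH mice were ordered 3, 4, 1, with mice 2 and 5 below, an order found for 2.8% of the genes tested. Of the 6 genes that passed edgeR's expression filter, 4 were called higher in the EtOH mice (Ttr, Kl, Prlr and Otx2) and none lower, where 4.2% of all genes tested were called higher and 4.09% lower. A gene was called where edgeR's quasi-likelihood test gave an adjusted p-value under 0.05 and the groups differed by over 0.5 on the log2 scale. The median log2 fold change of the 6 genes was 2.32, and that of all genes tested was 0.0001.

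**Figure D1:**
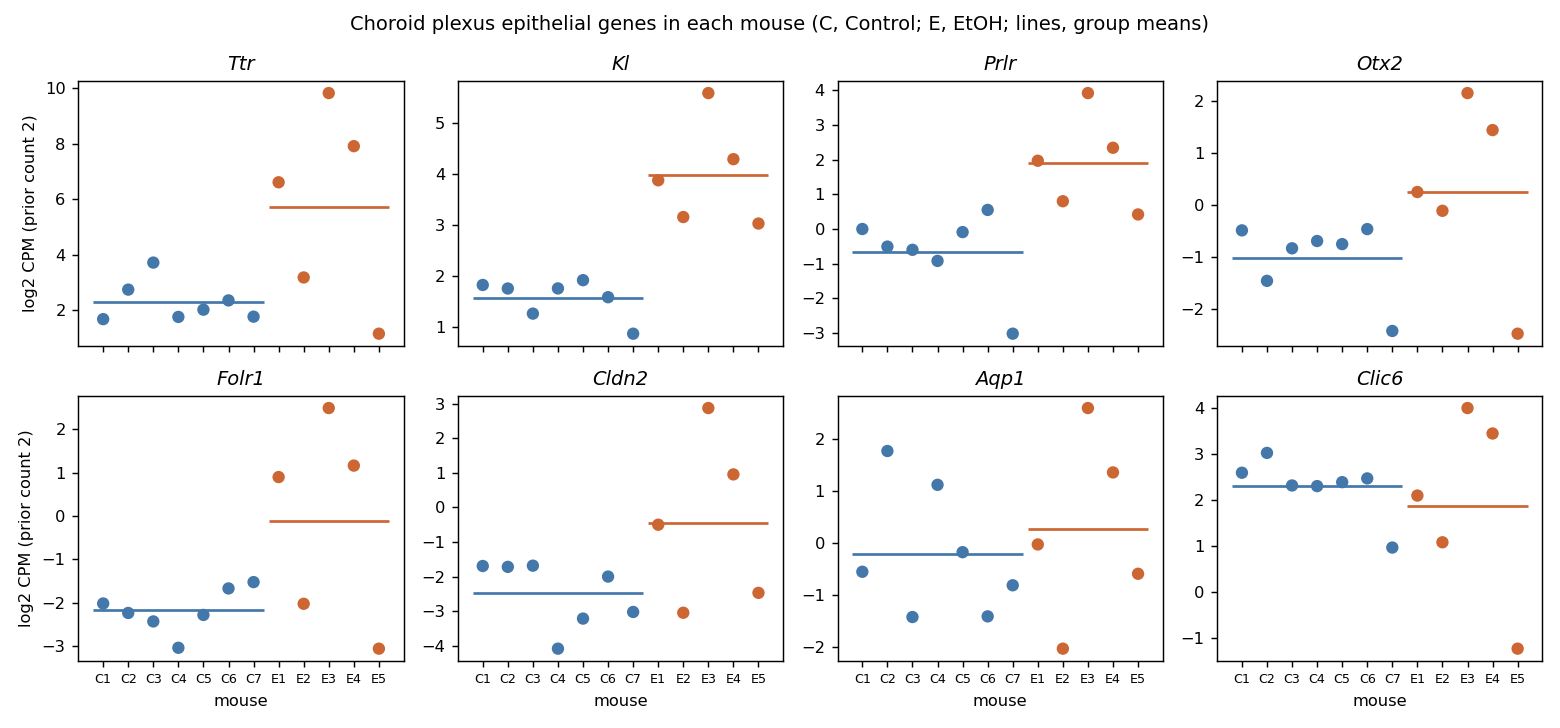
Level of each of the 8 genes in each mouse, in log2 CPM with a prior count of 2 (blue, 7 Control mice; orange, 5 EtOH mice; lines, group means). EtOH mice 3, 4 and 1 stand highest among the EtOH mice in every panel, whilst EtOH mice 2 and 5 lie within or below the control range except for Kl, and in part for Prlr and Otx2.

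Ttr encodes transthyretin, the carrier of thyroxine and of the retinol-binding protein that the epithelium releases into the cerebrospinal fluid. In the control mice Ttr lay between 3.13 and 13.1 CPM, with a median of 3.98. In EtOH mice 1 to 5 it was 97.8, 8.99, 911, 241 and 2.16 CPM. Mice 1, 3 and 4 were thus above every control mouse, mouse 2 was within the control range and mouse 5 was below every control mouse. The highest EtOH mouse had 422 times the level of the lowest EtOH mouse and 69.7 times that of the highest control mouse. In EtOH mouse 3 the gene held 0.0917% of all counts, against at most 0.00129% in a control mouse. The group values were 252 ± 381 CPM (SD, n = 5) and 5.50 ± 3.56 CPM (SD, n = 7), which differed by 5.52 on the log2 scale with a standard error of 0.95 (adjusted p = 0.000492 in edgeR). The call depended on the model. DESeq2 gave an adjusted p of 8.29e-07, limma voom a log2 fold change of 3.48 (standard error 1.55) with an adjusted p of 0.114, and an exact two-sided permutation test of mean log2 CPM over 792 splits a p of 0.0278, unadjusted among 8 such tests. Without EtOH mouse 3 the edgeR log2 fold change was 4.00 (adjusted p = 0.00166).

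Folr1 encodes folate receptor alpha, through which the epithelium moves folate from blood into the cerebrospinal fluid. It lies on chromosome 7 of GRCm39, from 101507537 to 101520014. The control mice had 2 to 9 counts, a median of 0.153 CPM and a range of 0.0625 to 0.289 CPM. In EtOH mice 1 to 5 the counts were 78, 6, 187, 72 and 2, or 1.81, 0.187, 5.58, 2.18 and 0.0608 CPM. The same 3 mice as for Ttr were above all control mice, and mouse 5 was under the floor of 3 counts. Folr1 reached 10 counts in 3 of the 12 mice, did not pass the expression filter and so was not among the genes tested. In a fit over all 23748 genes with at least 1 count in any mouse, the groups differed by 3.48 on the log2 scale (SE 0.64, adjusted p = 0.00047 by edgeR), where 3.08% of genes were called higher and 2.95% lower. With EtOH mouse 3 left out the value was 2.60 (adjusted p = 0.00408 in edgeR). With limma voom on the same genes the adjusted p was 0.14, and the exact permutation test gave 0.0455.

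Cldn2 encodes claudin-2, a tight junction protein that forms pores for cations and water in leaky epithelia. It lies on chromosome X, from 138701480 to 138712135. Control counts ran from 0 to 8, with a highest level of 0.253 CPM. EtOH mice 1 to 5 held 28, 2, 244, 62 and 4 counts, or 0.649, 0.0622, 7.27, 1.88 and 0.122 CPM. Mice 1, 3 and 4 were again the only EtOH mice above the control range. In the fit over 23748 genes the groups differed by 3.72 on the log2 scale (SE 0.78, adjusted p = 0.00166 by edgeR), and it was 2.16 (adjusted p = 0.037 in edgeR) without EtOH mouse 3. With limma voom the adjusted p was 0.145 and with the exact permutation test the p was 0.0606.

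Cldn2 and Ttr stood in a similar ratio in the mice where both were abundant. For each Cldn2 count there were 151 Ttr counts in EtOH mouse 1, 125 in mouse 3 and 128 in mouse 4, although Ttr itself differed between these mice by several fold. In EtOH mouse 2 the ratio was 144.5, on 2 Cldn2 counts, and in mouse 5 it was 17.8, on 4. In the 6 control mice with Cldn2 counts the ratio was 12.5 to 81.5, on at most 8 Cldn2 counts. For each Folr1 count, EtOH mice 1, 3 and 4 had 54.1, 163 and 111 Ttr counts, and the control mice 11.6 to 103.5 on at most 9 Folr1 counts. The number of control counts is too low to read an order from these control ratios.

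Kl did not follow Ttr in the same way. It encodes klotho, a membrane protein that serves as co-receptor for FGF23 and is also shed into the cerebrospinal fluid; in the brain it is strongest in the choroid plexus and weaker in neurons. The gene lies on chromosome 5, from 150876072 to 150917284. Control mice had 1.76 to 3.71 CPM, with a median of 3.31. EtOH mice 1 to 5 had 14.6, 8.84, 47.9, 19.5 and 8.09 CPM. Kl was the member for which every EtOH mouse lay above every control mouse, as 4.84% of the genes tested did. The groups differed by 2.72 on the log2 scale (SE 0.36, adjusted p = 3e-05 by edgeR), limma voom gave 2.43 (standard error 0.45, adjusted p = 0.000921), and the exact permutation p was 0.00126, the smallest that these group sizes allow. Without EtOH mouse 3 the log2 fold change was 2.09 (adjusted p = 5.98e-06 in edgeR). In EtOH mice 2 and 5, where Ttr was not above the controls, Kl was still more than the highest control value. For each Kl count there were 6.70, 1.02, 19.0, 12.4 and 0.267 Ttr counts in EtOH mice 1 to 5, and 0.901 to 5.59 in the control mice.

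Prlr stood between these patterns. It encodes the prolactin receptor, a cytokine receptor which in the choroid plexus takes up prolactin from the blood, and it lies on chromosome 15 from 10177258 to 10349959. Control mice had 0.0641 to 1.40 CPM, with a median of 0.643, and the lowest of them, Control mouse 7, held only 2 counts. In EtOH mice 1 to 5 the levels were 3.85, 1.68, 15.1, 5.01 and 1.28 CPM. Mice 1 to 4 were above every control mouse, and mouse 5 was within the control range. The groups differed by 2.90 on the log2 scale (SE 0.54, adjusted p = 0.000914 by edgeR), and limma voom gave 2.67 (adjusted p = 0.013). With EtOH mouse 3 left out the edgeR value was 2.04 (adjusted p = 0.00358). The exact permutation p was 0.00253. Prlr shares exonic bases with 3 further annotated genes, whose reads could not be told apart from its own here.

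Otx2, a homeodomain transcription factor that specifies and maintains choroid plexus epithelium, lies on chromosome 14 from 48894099 to 48911276 on the minus strand. Control mice had 0.128 to 0.67 CPM, with a median of 0.537. EtOH mice 1 to 5 had 1.14, 0.871, 4.41, 2.67 and 0.122 CPM. Mice 1 to 4 exceeded the controls, and mouse 5, with 4 counts, was level with the lowest control mouse, which also had 4. The groups differed by 1.92 on the log2 scale (SE 0.53, adjusted p = 0.015 by edgeR). This call rested on EtOH mouse 3, without which the log2 fold change was 1.31 (adjusted p = 0.0804 in edgeR). The exact permutation p was 0.116, and limma voom gave an adjusted p of 0.191. Otx2 shares exonic bases with 3 further annotated genes, among them the antisense gene Otx2os1, and the strand setting of the counting was not given in the sources used here.

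The remaining members, Aqp1 and Clic6, were not called in either direction. Aqp1, the water channel of the apical epithelial membrane, lies on chromosome 6 from 55313068 to 55325540. It was 0.316 to 3.37 CPM in the control mice, with a median of 0.626, and 0.927, 0.187, 6.02, 2.52 and 0.608 CPM in EtOH mice 1 to 5. Only EtOH mouse 3 was above the highest control mouse, and the groups differed by 0.82 on the log2 scale (SE 0.67, adjusted p = 0.397 by edgeR) or -0.13 without that mouse. The spread among the control mice was as large as their mean, with a coefficient of variation of 100.1%.

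Clic6, a member of the chloride intracellular channel family, lies on chromosome 16 from 92282624 to 92338739. In contrast to Folr1 and Cldn2, it was well above the floor in the control mice, at 1.89 to 8.09 CPM with a median of 5.18. EtOH mice 1 to 5 had 4.22, 2.05, 16.0, 10.9 and 0.365 CPM. Mice 3 and 4 were above the control range, mice 1 and 2 within it and mouse 5 below it. The groups differed by 0.36 on the log2 scale (SE 0.51, adjusted p = 0.649 by edgeR), and it was -0.25 without EtOH mouse 3. The groups overlapped for every member except Kl.

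**Figure D2:**
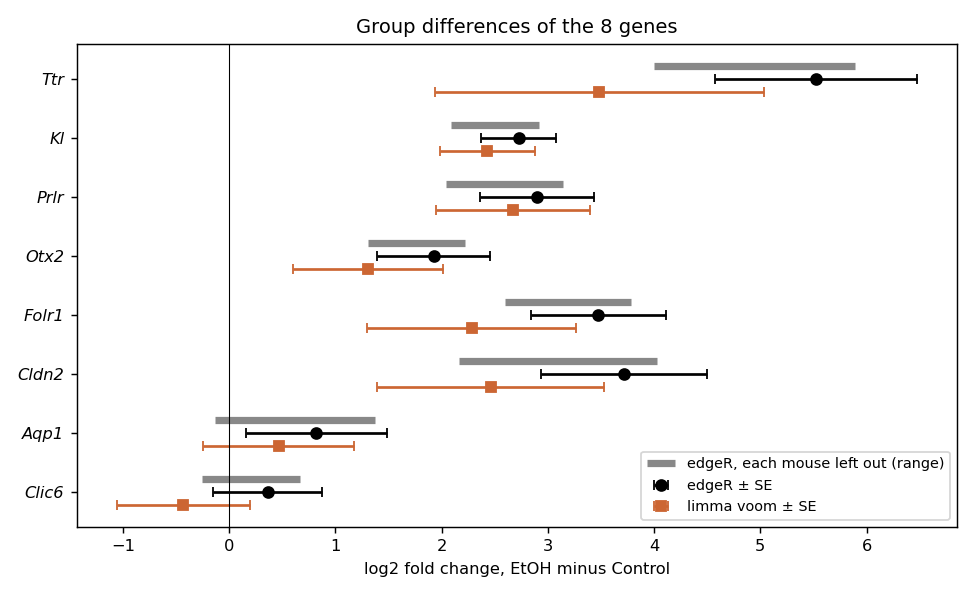
Log2 fold change (EtOH minus Control) of each gene from edgeR (black, ± standard error), the range of the edgeR value with each mouse left out (grey) and the limma voom value (orange, ± standard error); Folr1 and Cldn2 are from the fit over genes with at least 1 count. Kl has the narrowest error of the 8 genes at 2.72 ± 0.36, and the limma voom value of Ttr (3.48) lies below that of edgeR (5.52).

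**Figure D3:**
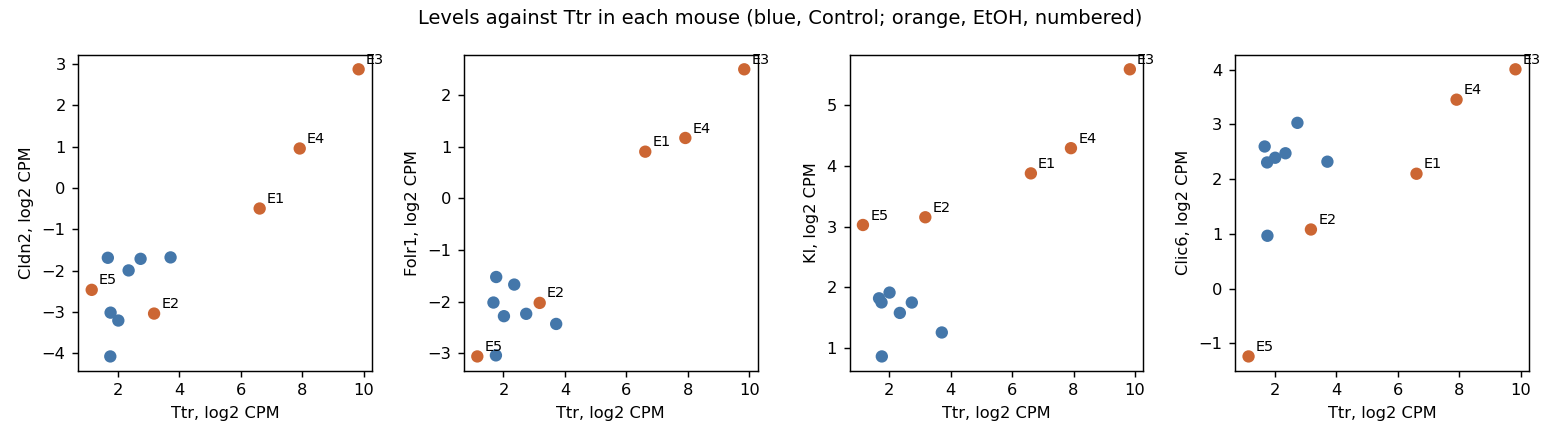
Cldn2, Folr1, Kl and Clic6 plotted against Ttr in each mouse, all in log2 CPM with a prior count of 2 (blue, 7 Control mice; orange, 5 EtOH mice, numbered). On the vertical axis EtOH mice 2 and 5 lie at or below the highest control mouse for Cldn2 and Folr1, whilst for Kl they lie above every control mouse (8.84 and 8.09 CPM against at most 3.71).

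The levels of the 8 members were compared with each other after division by exon length (CPM per kb of merged exons in Gencode release 39, which counts the exons of all annotated isoforms). On that scale the control medians ran from Ttr (2.09) and Clic6 (1.14) through Kl (0.355), Aqp1 (0.21), Otx2 (0.0994), Cldn2 (0.0557) and Prlr (0.0347) to Folr1 (0.0233). Over the control mice the ranges of neighbours in this order overlapped, except that the lowest Clic6 value (0.417) was above the highest Kl value (0.398). In EtOH mouse 3 the level of Ttr was 478 CPM per kb, followed by Kl at 5.14 and Clic6 at 3.52. The 8 genes together took 0.102% of all counts in EtOH mouse 3, 0.0286% in mouse 4 and 0.0128% in mouse 1. In EtOH mice 2 and 5 and in the control mice they took between 0.00079% and 0.00229%.

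Promoters of the members and of other choroid plexus genes were searched for TAATCC, the core letters bound by OTX homeodomain proteins, and its reverse complement GGATTA. The RefSeq promoter table (GRCm38.p6, 250 bases before to 50 after each start) held 10 promoters for 5 of the 8 members, Kl, Aqp1, Otx2, Prlr and Cldn2. Of these, 1 promoter of Otx2 held the letters (10%), and so did 3 of 25 promoters of 22 other choroid plexus genes (12%), those of Mfrp, Abca4 and Ace. The share was 7.06% over all 32851 promoters in the table and 5.69% over the 15858 promoters of genes tested. A match is a description of the letters and not of binding. Shown here, 5′ to 3′ with the motif in capitals, are the Otx2 promoter with the match (chr14:48902517-48902816, minus strand), that of Mfrp (chr9:44012817-44013116, plus strand), and those of Kl (chr5:150875822-150876121, plus strand) and Prlr (chr15:10177074-10177373, plus strand), the members called by edgeR, DESeq2 and limma voom alike, which hold no match in these windows. Positions are those of the same letters in GRCm39.
Otx2: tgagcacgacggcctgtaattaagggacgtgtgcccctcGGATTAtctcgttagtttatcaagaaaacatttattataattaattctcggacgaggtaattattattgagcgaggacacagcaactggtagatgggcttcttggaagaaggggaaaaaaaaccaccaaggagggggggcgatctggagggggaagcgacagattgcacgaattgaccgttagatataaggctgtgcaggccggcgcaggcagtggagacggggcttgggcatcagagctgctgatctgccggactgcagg
Mfrp: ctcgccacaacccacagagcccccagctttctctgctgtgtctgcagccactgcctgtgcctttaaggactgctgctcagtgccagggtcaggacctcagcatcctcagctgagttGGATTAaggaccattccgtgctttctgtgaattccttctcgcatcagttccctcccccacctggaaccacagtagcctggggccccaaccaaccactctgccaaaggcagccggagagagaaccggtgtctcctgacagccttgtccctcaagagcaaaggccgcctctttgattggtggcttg
Kl: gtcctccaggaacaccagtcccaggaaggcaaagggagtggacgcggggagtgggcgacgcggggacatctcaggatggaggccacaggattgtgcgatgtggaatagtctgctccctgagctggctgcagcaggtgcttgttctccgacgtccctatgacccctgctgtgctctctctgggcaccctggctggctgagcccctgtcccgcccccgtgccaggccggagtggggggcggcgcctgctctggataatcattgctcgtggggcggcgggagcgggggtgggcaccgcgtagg
Prlr: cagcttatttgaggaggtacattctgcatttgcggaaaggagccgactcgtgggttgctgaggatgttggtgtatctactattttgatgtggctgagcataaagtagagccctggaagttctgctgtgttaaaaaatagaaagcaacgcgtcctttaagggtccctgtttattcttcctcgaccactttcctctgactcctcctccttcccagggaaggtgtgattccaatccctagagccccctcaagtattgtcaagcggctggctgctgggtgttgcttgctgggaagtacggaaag

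Other genes of the same epithelium were examined from a list of 24. In EtOH mouse 3, 23 of the 24 were at their highest of all mice, as were 10.6% of all genes tested. The list had 17 members that passed the filter, of which 8 were called higher, none was called lower and 9 were not called. Over all genes tested, 4.2% were called higher and 4.09% lower. The median log2 fold change of the 17 was 0.42. Those called were Slc29a4, Sostdc1, F5, Kcne2, Calml4, Wdr86, Kcnj13 and Abca4, with log2 fold changes of 1.01, 2.53, 2.93, 2.75, 2.13, 1.46, 1.81 and 0.67. The potassium channel subunits Kcne2 and Kcnj13 belong to the apical ion transport of this epithelium, whilst F5 encodes coagulation factor V and Sostdc1 a secreted BMP and Wnt antagonist. Without EtOH mouse 3, 4 of the genes were called, and limma voom called 2.

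Kcne2 was 0.0641 to 0.505 CPM in the control mice, and 1.34, 0.187, 4.44, 1.52 and 0.213 CPM in EtOH mice 1 to 5. F5 was 0.313 to 1.21 CPM in the control mice and 4.59, 0.747, 19.1, 4.70 and 0.304 CPM in EtOH mice 1 to 5. Both thus showed the pattern of Ttr, with mice 2 and 5 within or below the control range. Slc29a4, an organic cation transporter that is also made by neurons, was instead higher in every EtOH mouse (15.4 to 29.9 CPM) than in every control mouse (7.20 to 12.7 CPM).

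Among the 7 listed genes that did not pass the filter, Slc4a5, a sodium bicarbonate cotransporter, was at most 0.319 CPM in the control mice and 1.25, 0.187, 10.7, 2.43 and 0.182 CPM in EtOH mice 1 to 5. Tmem72 was at most 0.257 CPM in the control mice and 1.76, 0.622, 12.2, 3.09 and 0 CPM in the EtOH mice, and Mfrp at most 0.366 CPM and 1.23, 0.156, 12.3, 2.73 and 0.122 CPM. In the fit over genes with at least 1 count, 12 of the 24 were called higher and none lower, against 3.08% and 2.95% of the genes in that fit. Of the other genes that did not pass the filter, Steap1 was called in that fit (adjusted p = 0.018 in edgeR). Lmx1a, Krt8 and Krt18 were not (adjusted p = 0.412, 0.284 and 0.0662 in edgeR). Car12, Enpp2 and Cab39l were also among the genes not called. Car12, a carbonic anhydrase, was the gene of the 24 that was not highest in EtOH mouse 3, with 17.6 to 36.8 CPM in the control mice and 16.1, 11.6, 33.3, 18.4 and 10.4 CPM in EtOH mice 1 to 5 (log2 fold change -0.64, adjusted p = 0.0767 in edgeR). EtOH mice 1, 2 and 5 were below every control mouse for it. Enpp2, which oligodendrocytes also make, differed by 0.26 on the log2 scale (adjusted p = 0.356 in edgeR), with 541 CPM in EtOH mouse 3 and 214.5 to 281.5 CPM in the control mice, and Cab39l by -0.03 (adjusted p = 0.845 in edgeR).

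**Figure D4:**
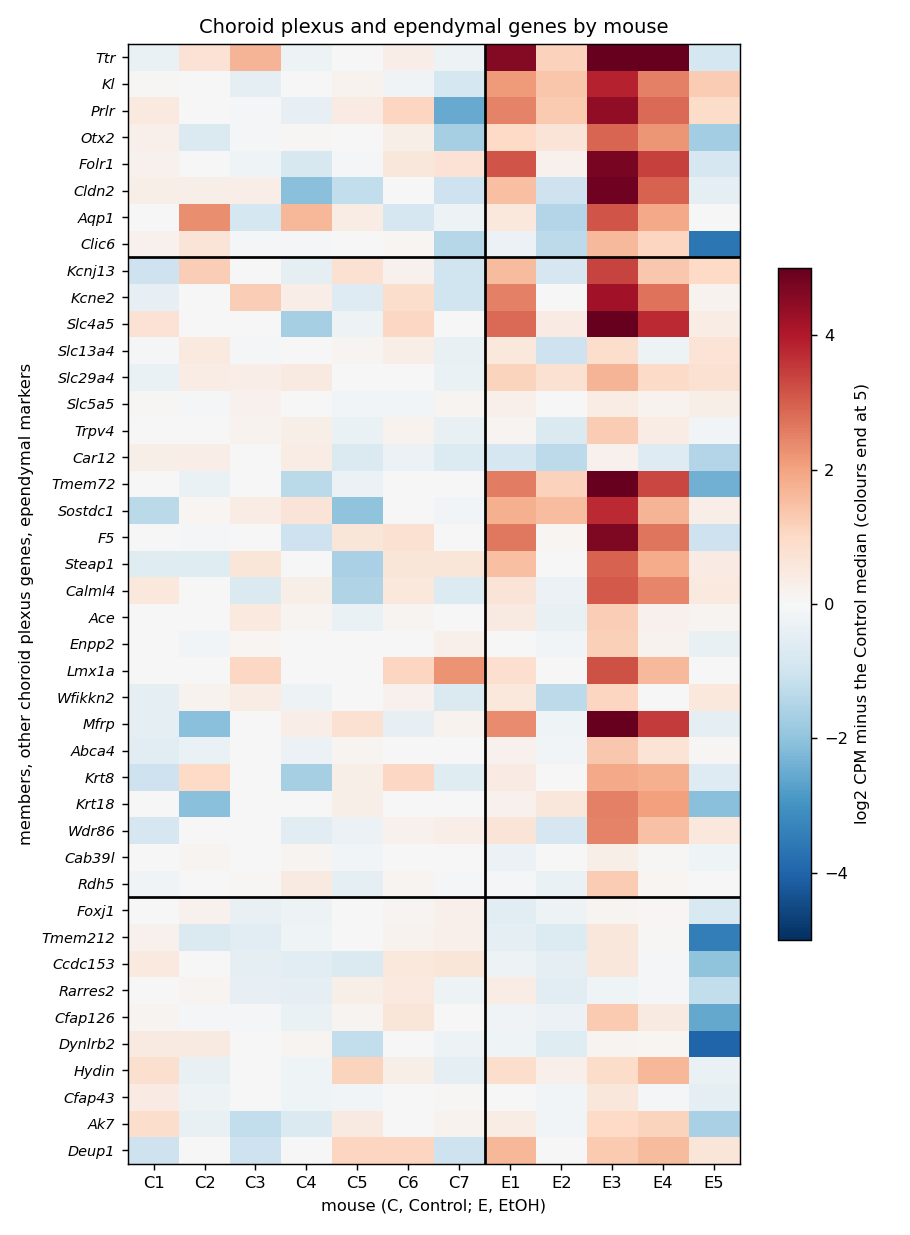
Difference of each gene's log2 CPM (prior count 2) from its median in the 7 Control mice, for the 8 members, 24 other choroid plexus genes and 10 ependymal markers (rows) in 12 mice (columns; red higher, blue lower, colours end at 5). The columns of EtOH mice 3, 4 and 1 are red for Ttr, Folr1, Slc4a5, Tmem72, F5 and Mfrp, and EtOH mouse 5 is blue for Clic6 and several ependymal markers.

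Cells that border the plexus were examined through their own markers. Ependymal cells line the ventricle wall with motile cilia. Of 10 ependymal markers 9 were tested, and none was called in either direction (edgeR median log2 fold change -0.24; 0 of 9 had an unadjusted p under 0.05, and DESeq2 and limma voom called 0). Their summed level was 14.2 to 21.1 CPM in the control mice and 16.7, 14.6, 24.0, 22.2 and 8.72 CPM in EtOH mice 1 to 5. The order 3, 4, 1, with mice 2 and 5 below, held for 4 of the 10 ependymal markers and 14 of the 24 other choroid plexus genes. It held for 2.8% of the genes tested. EtOH mouse 5 was the lowest of the EtOH mice for 9 of the 10 ependymal markers, for 6 of the 8 choroid plexus genes and for 10 of the 24 other choroid plexus genes, where it was so for 16.3% of the genes tested. Tmem212 and Dynlrb2 had no counts in that mouse, which allows up to 0.0912 CPM for 3 counts, against 0.337 to 0.706 and 0.342 to 1.25 CPM in the control mice. The part of ventricle wall tissue in the choroid plexus values was not tested.

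Of 8 fibroblast markers of meninges and stroma, Dcn alone was called, with 28.7, 10.4, 56.3, 37.0 and 22.9 CPM in EtOH mice 1 to 5 and 7.20 to 10.5 CPM in the control mice (log2 fold change 1.87, adjusted p = 6.38e-05 in edgeR). Dcn thus ordered the EtOH mice as the choroid plexus genes did. Of the 8 fibroblast markers 4 were highest in EtOH mouse 3, as were 10.6% of all genes tested. The summed level of the 8 was 49.2 to 75.3 CPM in the control mice and 96.4, 40.1, 125, 75.2 and 95.2 CPM in EtOH mice 1 to 5. The part of such cells in the choroid plexus values was not tested. Among 8 endothelial markers, Ly6c1 was lower (log2 fold change -0.64, adjusted p = 0.000526 in edgeR) and none was higher. None of 5 red blood cell markers was called by edgeR, DESeq2 or limma voom, and 0 had an unadjusted p under 0.05 in edgeR. Over all genes tested, 4.2% were called higher and 4.09% lower. All 12 striatal markers were called lower, with Drd2, Rgs9, Ppp1r1b and Gpr6 having the smallest p-values (log2 fold changes -4.97, -3.13, -2.63 and -2.84). Of 10 hippocampal markers 9 were called higher, among them Fibcd1, C1ql2 and Dsp (log2 fold changes 2.62, 4.29 and 4.97). Of 7 thalamic markers, Slc17a6 (1.08) and Ntng1 (1.14) were called higher and Synpo2 (-0.64) lower, and of 8 cortical markers Fezf2 (0.60) was called higher.

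The hippocampal markers did not rank the EtOH mice as the choroid plexus genes did. Their summed level without Wipf3 was 171, 194, 172, 150 and 143.5 CPM in EtOH mice 1 to 5, each above the highest control mouse (37.5 CPM). Their mean log2 CPM, Wipf3 included, was 3.51, 3.96, 3.38, 2.84 and 3.28. EtOH mouse 2 was the highest on both measures, and the order of the other EtOH mice differed between them. None of the 10 hippocampal genes was highest in EtOH mouse 3. The part of hippocampal tissue in the difference in Kl was not tested.

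**Figure D5:**
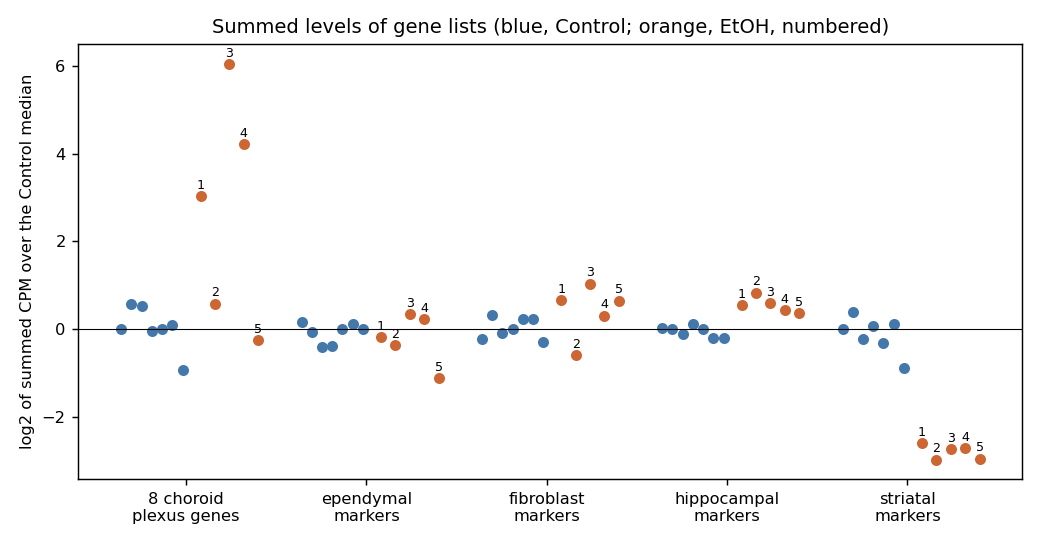
Summed CPM of each gene list in each mouse, as log2 of its ratio to the Control median (blue, 7 Control mice; orange, 5 EtOH mice, numbered). The 8 choroid plexus genes spread over a wide range among the EtOH mice (12.8 to 1013 CPM). Ttr alone made up 911 of 1013 CPM in EtOH mouse 3 and 241 of 286 CPM in mouse 4. The summed striatal markers lie at 236 to 305 CPM and the summed hippocampal markers, Wipf3 included, at 341 to 474 CPM.

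The genes that act with the members were mostly not called, as were most genes tested, of which 8.29% were called in either direction. In the lists that follow with no call, DESeq2 and limma voom called 0 as well. Of the other folate carriers, none of the 3 tested was called, with 0 at an unadjusted p under 0.05 in edgeR, and the proton-coupled folate transporter Slc46a1 differed by -0.11 on the log2 scale (adjusted p = 0.471 in edgeR) and the reduced folate carrier Slc19a1 by 0.13 (adjusted p = 0.306 in edgeR). None of 7 tested genes of prolactin receptor signalling was called, although 3 had an unadjusted p under 0.05 in edgeR. Of these, Jak2 (-0.27 on the log2 scale, adjusted p = 0.0171 in edgeR) and Socs2 (0.40, adjusted p = 0.016 in edgeR) passed the adjusted p but not the fold minimum. Prl itself had at most 2 counts in any mouse. None of 6 tested klotho relatives and FGF receptors was called, and 2 had an unadjusted p under 0.05 in edgeR, of which Fgfr3 (0.16 on the log2 scale, adjusted p = 0.0252 in edgeR) passed the adjusted p but not the fold minimum. Of 8 genes of thyroid hormone and retinol handling, 1 was called higher, Dio3, which inactivates thyroid hormone. It was 0.319 to 1.76 CPM in the control mice and 3.71, 0.249, 5.31, 5.34 and 1.76 CPM in EtOH mice 1 to 5 (log2 fold change 1.77, adjusted p = 0.0114 in edgeR), and limma voom did not call it.

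Among the relatives of the members, none of 3 tested aquaporins and none of 4 other CLIC genes was called by edgeR, DESeq2 or limma voom, and 2 of each had an unadjusted p under 0.05 in edgeR. Of these, Aqp4 (log2 fold change 0.27, adjusted p = 0.0104 in edgeR), Aqp11 (0.33, adjusted p = 0.00687 in edgeR) and Clic4 (-0.26, adjusted p = 0.0132 in edgeR) passed the adjusted p but not the fold minimum. Of 7 tested claudins Cldn1 was called higher, at 5.04 to 9.87 CPM in the EtOH and 1.06 to 1.53 CPM in the control mice (log2 fold change 2.29, adjusted p = 1.2e-07 in edgeR), without overlap between the groups. Of 8 broad ion transporters, the sodium bicarbonate cotransporter Slc4a7 was called higher (0.66, adjusted p = 1.98e-05 in edgeR). Of 3 tested OTX relatives and roof plate factors, Msx1 was called higher (1.04, adjusted p = 0.00254 in edgeR), with 9.78 CPM in EtOH mouse 3 and 2.14 to 3.32 CPM in the control mice. The OTX relative Crx had no counts in any mouse.

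Likeness to the members was measured as the Pearson correlation, over 12 mice, between a gene's deviations from its group means and the mean deviation of the 6 tested members, among 14167 genes of at least 1 CPM. The 10 most alike were Shisa6 (0.91), Tnfaip8l3 (0.91), Ano6 (0.90), Myo5b (0.90), Slc24a3 (0.89), Tmem255a (0.89), Zfp346 (0.89), F5 (0.89), Ecel1 (0.88) and Jph2 (0.88). All libraries share these few deviations, so the values describe the 12 mice only. Without EtOH mouse 3 the correlations of these 10 genes were 0.78 to 0.92. F5 is the only one of them on the list of other choroid plexus genes. Among the tested members, the highest pairwise correlations were 0.94 for Clic6 with Otx2 and 0.91 for Clic6 with Ttr, and the lowest were 0.45 for Aqp1 with Otx2 and 0.47 for Aqp1 with Prlr. Without EtOH mouse 3 these were 0.92, 0.87, 0.21 and 0.215, and the correlation of Aqp1 with Ttr went from 0.60 to 0.38.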

How the data were processed

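Total RNA from frozen cortex of 12 mice (7 Control, 5 EtOH) was extracted and sequenced by BGI (DNBSEQ). The authors checked reads with FastQC 0.11.9, aligned them with STAR to GRCm39 with the Gencode release 28 annotation and counted them with featureCounts. The deposited values are estimated counts per gene symbol, not normalized; 61 symbols held values that are not whole, and counts were rounded. Total counts were 31768079 to 42183031. Each column name matched 1 mouse, and 0 columns were left over. Within a group no pair of libraries differed by less than sampling noise (chi-square over its degrees of freedom at least 7.77).

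Genes were kept with filterByExpr (16059 genes) and compared with edgeR 4.0.16 (TMM factors, quasi-likelihood test, Benjamini-Hochberg adjustment over all genes tested; limma 3.58.1, R 4.3.3). The standard error is the log2 fold change divided by the square root of F. Log2 CPM used a prior count of 2. Exact permutation tests were two-sided over 792 splits. The fits were checked on simulated data. Alternatives were DESeq2 1.42.0, limma voom, other factors, filters and fold minimums, and each mouse left out. The replicate number was also used as a block, on mice 1 to 5 of each group. Halved counts were added after seeing the data. Positions and exon lengths are from Gencode release 39 (GRCm39).

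The members and gene lists were chosen with earlier results of these data known. Named genes are all members, the 8 other choroid plexus genes with the smallest p, those called in the other lists (at most 4 for regions and other cell types) and the 10 genes most alike; Tmem72, Mfrp, Slc4a5, Enpp2, Cab39l, Car12, Wipf3, Tmem212, Dynlrb2, Slc46a1, Slc19a1, Prl, Jak2, Socs2, Fgfr3, Aqp4, Aqp11, Clic4 and Crx were picked with their values in view. Steap1, Lmx1a, Krt8 and Krt18 were also picked with their values in view. Nothing in the sources says whether mice shared cages or litters. A gene that the rule for named genes picks is not reported here.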

Additional observations from a re-analysis of the deposited data

Results flagged for a closer look

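Within a group, single mice stood far from the rest in 6 of 70 checks of a gene, list or total on a log2 scale, where chance gives about 3.5. Control mouse 7 had the lowest Clic6 of the controls (log2 CPM 0.96, next 2.30) and the lowest Prlr (-3.02, next -0.92). Total counts were highest in Control mouse 5 (log2 25.28, next 24.95) and in EtOH mouse 1 (25.33, next 24.99). EtOH mouse 3 had the lowest mean log2 CPM of the klotho relatives and FGF receptors (1.16, next 1.81), and Control mouse 6 the highest of the red blood cell markers (3.79, next 1.14). The high Ttr, Folr1 and Cldn2 of EtOH mice 3, 4 and 1 did not meet this criterion, which compares only the outermost mouse with its neighbour.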

How the results depend on the processing

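Of 57 alternative values of the members' log2 fold changes other than leaving out a mouse, 50 kept their direction and their side of the thresholds. Under limma voom Ttr (3.48), Otx2 (1.31), Folr1 (2.28) and Cldn2 (2.46) were no longer called, Clic6 turned to -0.43, and 2 members and 2 other choroid plexus genes were called. With at least 10 counts in every mouse, 2 members and 3 other choroid plexus genes were called; fewer members enter that fit. With no fold minimum, 1947 genes were called higher and 1863 lower, and with a minimum log2 fold change of 1, 242 and 282. The cause of the other changes was not tested.

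Deviations from group means correlated between -0.11 and 0.02 over the 5 pairs of mice with the same replicate number. A weak shared effect could give such values, so whether these mice were paired was not settled. The replicate block was fitted on mice 1 to 5 of each group, which leaves out Control mice 6 and 7. In that fit 3 members and 6 other choroid plexus genes were called. Otx2 was not called (1.39, adjusted p = 0.082 in edgeR), Clic6 turned to -0.36 and Ttr was 3.86. No other member's call changed. The part of the block and that of the omitted mice cannot be told apart.

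With each mouse left out in turn, 576 to 783 genes were called higher and 586 to 727 lower, with 3 to 4 members and 4 to 11 other choroid plexus genes called higher. Log2 fold changes ran from 4.00 to 5.90 for Ttr (5.895 at most), 1.31 to 2.22 for Otx2, -0.13 to 1.37 for Aqp1, -0.25 to 0.66 for Clic6, 2.09 to 2.92 for Kl, 2.04 to 3.15 for Prlr, 2.60 to 3.79 for Folr1 and 2.16 to 4.03 for Cldn2. Each lowest value was that without EtOH mouse 3, which also ended the call of Otx2. Depth limits Folr1 and Cldn2 in the control mice, at under 10 counts each.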

Other observations

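Low counts were more often even than odd. Of 55945 whole values from 1 to 20 over all genes and mice, 73.0% were even, and among the values of at least 1 count of the 8 choroid plexus genes 73 of 95 were even. How read pairs were counted is not given in the sources used here, and the cause was not tested. With counts halved and rounded, an alternative added after seeing the data, Ttr had a log2 fold change of 5.53 and Kl of 2.72, and 4 members and 6 other choroid plexus genes were called higher.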
